A study of Mus musculus with 4 samples.

Results

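Double-stranded RNA (dsRNA) sensing and interferon genes were examined in mouse embryonic stem cells (ESCs) labelled as knocked out for the kinase gene Pim3. The group holds 9 of the 55418 genes in the gene count table, chosen by symbol: the sensors Ifih1, Ddx58 and Tlr3, the adaptor Mavs, the transcription factors Irf1 and Irf7, and the effectors Isg15, Bst2 and Adar. Of the 9 genes, 6 had enough counts to be tested and 3 (Ifih1, Tlr3 and Isg15) did not.

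mRNA libraries were sequenced from E14 ESCs, given in the labels as strain 12910la, grown on gelatin in medium with serum and LIF. The WT group held 2 libraries of unedited ESCs. The Pim3-/- group also held 2 libraries, each from 1 clone in which CRISPR/Cas9 had been aimed at Pim3 exons, so that clone and replicate are the same thing and a difference between clones cannot be told apart from the spread between replicates. No library had been given interferon, a virus or an RNA mimic, so the comparison asks how the resting level of these genes differs after Pim3 editing. The WT samples are described as biological samples with nothing more on how they were separated, and p-values measure only the spread among these 4 libraries.

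Long double-stranded RNA is rare in a healthy cell and is read as a sign of a virus or of an active transposable element. RIG-I (made by Ddx58) and MDA5 (Ifih1) bind it in the cytosol and pass the signal to MAVS on mitochondria, while TLR3 binds it in endosomes. The signal ends in interferon regulatory factors, type I interferon and, through the interferon receptor and STAT proteins, in a large group of interferon-stimulated genes that includes Ddx58, Ifih1, Irf7, Isg15, Bst2 and the long form of Adar. ADAR edits adenosines in dsRNA and so keeps the cell's own RNA from being sensed. Pluripotent cells are known for a weak interferon response and for high expression of some endogenous retroviruses.

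The interferon route acts on promoters through short sequence elements, which are shown for the genes whose levels are described below. In the 250 bases before each RefSeq transcript start (assembly GRCm38.p6), both strands were searched for the core of the interferon-stimulated response element, spelled GAAANNGAAA, and for the GAS element, spelled TTCNNNGAA, which STAT dimers bind and which reads the same on both strands. All 9 genes had a promoter in the RefSeq table. The windows below carry in capitals the response element cores (Isg15 and Bst2) or the GAS match (Irf1), run 5′ to 3′ on the strand of the gene, and are given for the silent Isg15, the well expressed Bst2 and the expressed Irf1.
Isg15: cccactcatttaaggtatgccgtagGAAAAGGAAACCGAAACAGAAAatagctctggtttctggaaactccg
Bst2: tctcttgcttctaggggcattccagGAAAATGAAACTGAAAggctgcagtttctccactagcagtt
Irf1: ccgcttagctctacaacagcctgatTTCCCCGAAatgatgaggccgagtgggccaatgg
The Isg15 window (chr4:156200850-156200921, minus strand) holds 3 overlapping response element cores between 78 and 57 bases before the start. The Bst2 window (chr8:71537562-71537627, minus strand) holds 2 overlapping cores, at bases -130 to -115, and a GAS match at -136 to -128, not marked by capitals of its own, overlaps them. The Irf1 window (chr11:53769899-53769957, plus strand) holds a GAS match at -90 to -82, in the first of its 2 promoters. The promoters of Ddx58, Ifih1, Mavs, Tlr3, Irf7 and Adar held neither spelling. For comparison, the response element core was found in 2.98% of 32851 promoters and the GAS spelling in 7.02%. A match is a description of the letters and not a bound site.

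The gene counts summed to between 22029427 and 25668307 per library. TMM scaling, a correction for library composition, multiplied these totals by 0.828 and 0.883 in WT and by 1.17 in both Pim3-/- libraries. Levels are given as CPM, the count of a gene relative to the scaled total of its library. Of 18444 genes tested with edgeR's quasi-likelihood test, 17.6% were called higher in Pim3-/- ESCs and 16.2% lower, at a Benjamini-Hochberg adjusted p under 0.05. Scaling by library totals instead of TMM factors turned these 3246 higher and 2987 lower calls into 6594 and 1094, and moved the median log2 fold change of all genes from 0.07 to 0.52. Pim3 itself had 4392 and 4953 counts in WT against 4970 and 4804 in the libraries labelled Pim3-/- (log2 fold change -0.27 ± 0.17 SE, adjusted p = 0.251), so the count over the whole gene does not check the labels. All 12 ESC markers were detected in every library, with a summed level of 9930 to 10935 CPM in WT and 7226 to 7293 CPM in Pim3-/- ESCs. Of these markers Klf4 and Sall4 were called higher, Pou5f1, Nanog and Dppa5a were called lower and 7 were not called, with a median log2 fold change of -0.04. All 6 tested primitive endoderm markers (of 7, among them Gata4, Gata6 and Sox17) were called higher, with a median log2 fold change of 3.19 and a summed level of 18.7 to 33.7 CPM against 2.97 to 5.12 CPM in WT, and their part in the values below was not tested. Of these markers Sox17 (1 and 5 counts in WT) and Sox7 (3 and 0) passed the filter on low counts only through the Pim3-/- libraries, so the only call open to them was higher.

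The sensing genes did not rise together in Pim3-/- ESCs. Ddx58 and Bst2 fell, Mavs, Irf1, Irf7 and Adar did not pass the test, and Ifih1, Tlr3 and Isg15 were close to 0 counts in all 4 libraries. None of the 6 tested genes was called higher and 2 were called lower, against 17.6% and 16.2% of all genes. At an unadjusted p under 0.05 the counts were also 0 higher and 2 lower, and the Wald test of DESeq2 gave 0 and 2 as well. In 4 of the 6 tested genes both Pim3-/- libraries lay below both WT libraries, which was so for 34.2% of all tested genes, and in 1, Irf7, both lay above, as for 38.3%. In bulk RNA, fewer cells that express a gene and less RNA per cell cannot be told apart.

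**Figure D1:**
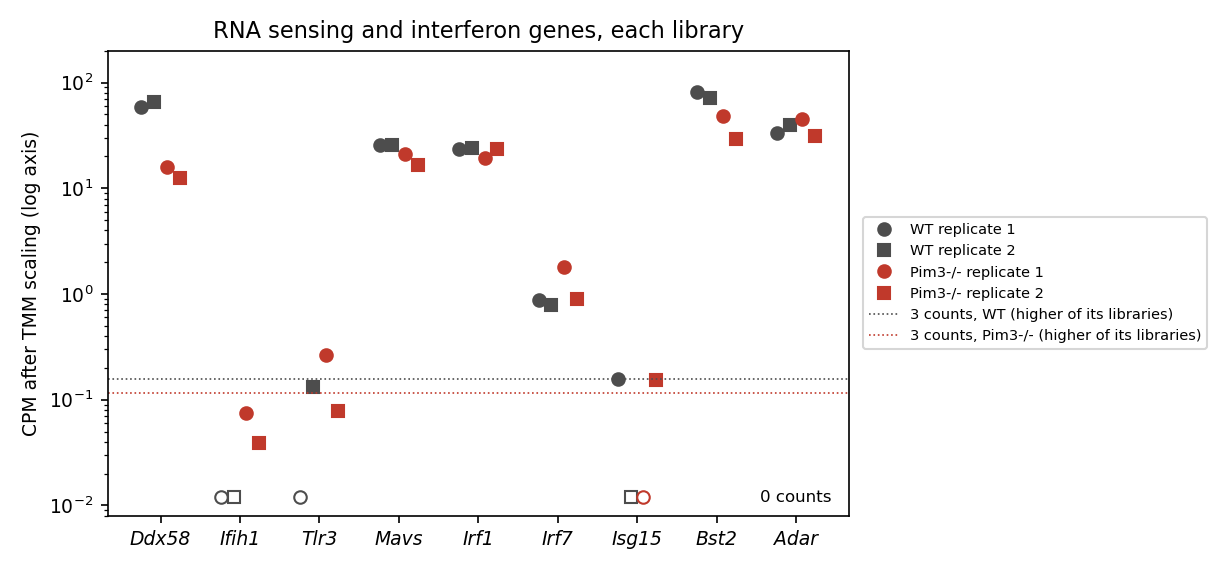
Level of each dsRNA sensing and interferon gene in each library, as CPM after TMM scaling on a log axis, with WT in grey and Pim3-/- in red, and with open symbols at the foot for 0 counts. The dotted lines mark the CPM of 3 counts in the library of each group where it is higher (0.156 in WT and 0.116 in Pim3-/-), and Ddx58 is the gene with the widest gap between the groups among the 6 that were tested.

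Among the sensors, Ddx58 (chromosome 4, 40203773-40239828, minus strand), which encodes RIG-I, the sensor of short dsRNA and of RNA with a 5′ triphosphate, was the only one with more than 7 counts in any library. It had 1129 and 1487 counts in WT against 425 and 323 in Pim3-/- ESCs, that is 58.9 and 65.6 CPM against 15.9 and 12.5 CPM. The groups were far apart, with the higher Pim3-/- library well under the lower WT library. The mean fell from 62.2 ± 4.74 to 14.2 ± 2.40 CPM (SD, n = 2 libraries per group), 4.38-fold lower in Pim3-/- ESCs (log2 fold change -2.13 ± 0.19 SE, 95% interval -2.57 to -1.69, adjusted p = 0.00244 by edgeR's quasi-likelihood test). The call held in all 10 alternative analyses, with adjusted p-values from 1.9e-39 to 0.0464, and with library totals the log2 fold change was -1.68.

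Ifih1 and Tlr3 were almost silent. Ifih1 (chromosome 2, 62595798-62646255, minus strand), which encodes MDA5, the sensor of long dsRNA, had 0 counts in both WT libraries, while the Pim3-/- libraries held 2 and 1. Tlr3 (chromosome 8, 45395665-45411080, minus strand), which encodes the endosomal dsRNA receptor, had 0 and 3 counts in WT against 7 and 2 in Pim3-/- ESCs. A level of 3 counts, the most that a count of 0 allows, was 0.112 to 0.156 CPM in these libraries, so that 1 Tlr3 value, 0.262 CPM in Pim3-/- replicate 1, stood above it. Without the filter on low counts, neither gene passed edgeR's quasi-likelihood test (adjusted p = 0.448 for Ifih1 and 0.611 for Tlr3), and no difference was detectable at this depth. An antisense transcript, Gm45542, shares 381 exon bases with Tlr3 on the other strand and had 0 counts except for 2 in Pim3-/- replicate 1.

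Mavs (chromosome 2, 131234063-131248025, plus strand), which encodes the mitochondrial protein on which RIG-I and MDA5 signals meet, was expressed in every library. It had 489 and 582 counts in WT against 562 and 432 in Pim3-/- ESCs, or 25.5 and 25.7 CPM against 21.03 and 16.7 CPM. Both Pim3-/- libraries lay below both WT libraries, whose values were nearly equal, while the 2 clones differed from each other. The means were 25.6 ± 0.119 and 18.9 ± 3.04 CPM (SD, n = 2), and the log2 fold change of -0.44 ± 0.19 SE (95% interval -0.88 to 0.01) did not pass edgeR's quasi-likelihood test (adjusted p = 0.112). It was 0.01 with library totals and -0.61 without Pim3-/- replicate 1, where the spread came from the 2 WT libraries alone.

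Neither of the interferon regulatory factors of the group passed the test. Irf1 (chromosome 11, 53770014-53778374, plus strand), a factor induced through the GAS element, had 454 and 548 counts in WT against 521 and 607 in Pim3-/- ESCs. In CPM these were 23.7 and 24.2 against 19.5 and 23.5, so that the second clone was close to WT and the first was lower. The log2 fold change was -0.15 ± 0.18 SE (95% interval -0.58 to 0.27, adjusted p = 0.541, edgeR's quasi-likelihood test), and it turned to 0.30 with library totals. Irf7 (chromosome 7, 141262706-141266481, minus strand), which drives the later wave of interferon genes and is itself interferon-induced, was low, with 17 and 18 counts in WT against 48 and 23 in Pim3-/- ESCs. Its 0.887 and 0.794 CPM in WT were under the 1.80 and 0.891 CPM of the Pim3-/- libraries, but the second clone exceeded the first WT library only slightly. The log2 fold change was 0.68 ± 0.50 SE with a wide 95% interval, from -0.49 to 1.84 (adjusted p = 0.320, edgeR's quasi-likelihood test), and it was 0.09 without Pim3-/- replicate 1 and 1.09 without replicate 2.

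Of the effectors, Bst2 was the most abundant gene of the group and fell, Adar did not differ detectably, and Isg15 was silent. Bst2 (chromosome 8, 71534255-71537456, minus strand) encodes tetherin, which holds budding enveloped viruses, retroviruses among them, to the cell surface. It had 1550 and 1630 counts in WT against 1292 and 761 in Pim3-/- ESCs, or 80.8 and 71.9 CPM against 48.4 and 29.5 CPM. The groups did not overlap, and the 2 clones were further apart than the 2 WT libraries. The means were 76.4 ± 6.32 and 38.9 ± 13.3 CPM (SD, n = 2), 1.96-fold lower in Pim3-/- ESCs (log2 fold change -0.97 ± 0.24 SE, 95% interval -1.54 to -0.41, adjusted p = 0.0211 by edgeR's quasi-likelihood test). The call was lost with library totals (-0.52, adjusted p = 0.111), without WT replicate 1 (-0.87, adjusted p = 0.171) and without WT replicate 2 (-1.07, adjusted p = 0.0897), where the spread came from the 2 clones alone. Leaving out Pim3-/- replicate 1 gave -1.37 and leaving out replicate 2 gave -0.66, where the spread came from the 2 WT libraries alone.

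Adar (chromosome 3, 89715022-89753446, plus strand), the dsRNA-editing enzyme, had 637 and 905 counts in WT against 1204 and 804 in Pim3-/- ESCs. The values of 33.2 and 39.9 CPM in WT and 45.1 and 31.2 CPM in Pim3-/- ESCs interleaved, with the highest and the lowest both in Pim3-/- clones. The log2 fold change was 0.06 ± 0.22 SE (95% interval -0.45 to 0.57, adjusted p = 0.853, edgeR's quasi-likelihood test), and it was -0.05 without WT replicate 1 and -0.23 without Pim3-/- replicate 1. The counts are per gene and do not separate the long, interferon-induced form from the constitutive one. Chrnb2, on the other strand, shares 1365 exon bases with Adar and had 233 and 309 counts in WT against 460 and 400 in Pim3-/- ESCs, and without strand information, which the sources used here do not give, reads of the 2 genes in that stretch cannot be told apart. The same holds over 135 bases for Irf1 and Gm17334, which had 41 and 93 counts in WT against 71 and 95 in Pim3-/- ESCs. It also holds over 45 bases for Irf7 and Phrf1, whose counts (1132 and 1383 in WT, 3038 and 2576 in Pim3-/- ESCs) were far above the 17 to 48 of Irf7 and higher in the same group, and their part in the Irf7 counts was not tested. Isg15 (chromosome 4, 156199424-156200818, minus strand), a ubiquitin-like protein and one of the most strongly induced interferon targets, had 3 and 0 counts in WT against 0 and 4 in Pim3-/- ESCs, and neither group had counts in both of its libraries. Without the filter on low counts its adjusted p was 0.993.

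**Figure D2:**
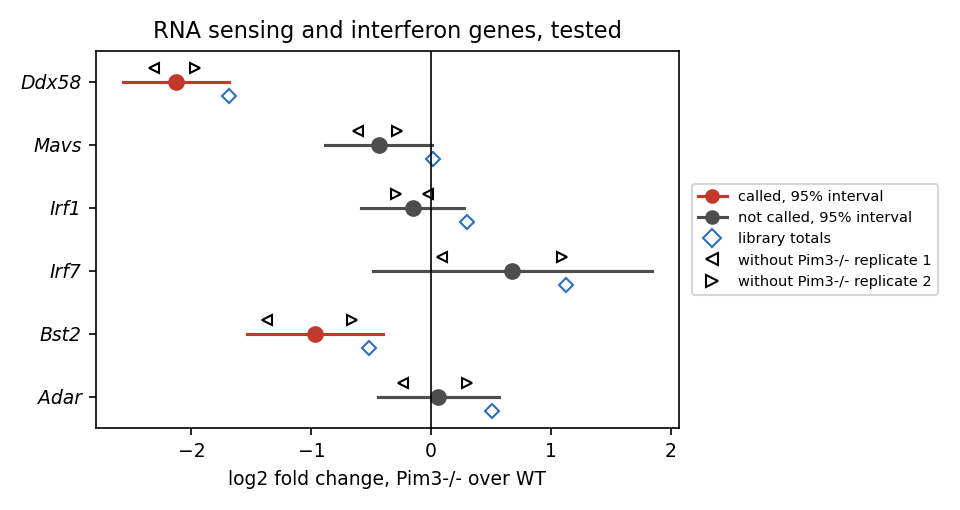
Log2 fold change (Pim3-/- over WT) of the 6 tested dsRNA sensing and interferon genes with its 95% interval, in red where called and in grey where not, beside the values with library totals (diamonds) and without either Pim3-/- library (triangles). The interval of Ddx58 ends at -1.69 and that of Bst2 at -0.41, while the other 4 include 0.

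The levels of the 9 genes spanned a wide range when given per kilobase of exon (CPM per kb). In WT ESCs Bst2 led with 84.6 ± 7.002 CPM per kb (SD, n = 2), followed by Ddx58 at 8.83 ± 0.673, Mavs at 7.65 ± 0.0355, Irf1 at 6.02 ± 0.0878, Adar at 4.50 ± 0.583 and Irf7 at 0.223 ± 0.0174, and no library of one overlapped those of the next. Isg15, Tlr3 and Ifih1 came last, at 0.103, 0.0127 and 0 CPM per kb, with overlapping values. In Pim3-/- ESCs Bst2 again led, at 43.1 ± 14.8 CPM per kb. Ddx58, at 2.02 ± 0.340 CPM per kb, stood below Mavs (5.65 ± 0.907), Irf1 (5.41 ± 0.715) and Adar (4.69 ± 1.21), which overlapped one another. So the RIG-I gene was the second gene of the group in WT ESCs and the fifth in Pim3-/- ESCs. Pim3-/- replicate 1 had the higher CPM in 5 of the 6 tested genes, all but Irf1, with ratios of replicate 1 over 2 of 1.27 for Ddx58, 1.26 for Mavs, 2.02 for Irf7, 1.64 for Bst2 and 1.45 for Adar. Over all tested genes replicate 1 was higher in 52.8%, with a median ratio of 1.03. It was also higher for all 6 tested primitive endoderm markers, and the part of that difference in these genes was not tested.

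The other genes of the pathway were taken from 10 lists with 199 genes in all, of which 136 were tested. Of these, 17 (12.5%) were called higher and 18 (13.2%) lower, below the 17.6% and 16.2% of all genes, and their median log2 fold change was -0.05 against 0.07 for all genes. Adad1, Mx1 and Lgals3bp are among the 17 and passed the filter on low counts only through the Pim3-/- libraries. Calls in both directions occurred within 4 of the lists, and 44 of the 199 genes had at most 3 counts in every library. When a Pim3-/- library was left out, the spread came from the 2 WT libraries alone, so calls made then do not measure the spread between clones. When a WT library was left out, the spread came from the 2 clones alone, and nearly all calls were lost, over all tested genes as among these. Without a Pim3-/- library there were more calls in both directions, again over all tested genes as among these. With library totals 46 were called higher and 9 lower, all 35 called genes kept the sign of their log2 fold change, and 26 kept the call. Over all 18444 tested genes library totals gave 6594 higher and 1094 lower calls, against 3246 and 2987 with TMM factors. The counts with library totals in the lists below are to be read against that shift of all genes. Of the 18 called genes that are named below by the rule given in the methods, Ifitm3 kept its call without WT replicate 1, Ifitm3, Oas1a and Oas1g did without WT replicate 2, and all 18 did when either Pim3-/- library was left out. The adjusted p-values of those that missed the threshold went from 0.071 (Oas1a) to 0.331 (Ube2l6) without WT replicate 1 and from 0.0531 (Rnaseh2c) to 0.349 (Fadd) without WT replicate 2.

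In the list of cytosolic RNA sensing, with partners and relatives of RIG-I, 3 of 15 tested genes were called higher and 2 lower, against 17.6% and 16.2% of all tested genes. The median log2 fold change was -0.26. With library totals 4 were called higher and 0 lower, with a median of 0.18, while the median of all tested genes moved from 0.07 to 0.52. Znfx1, a helicase-like protein that binds viral RNA, rose from 15.6 ± 2.42 to 31.1 ± 4.56 CPM (SD, n = 2; adjusted p = 0.0117 by edgeR's quasi-likelihood test, as for the values below). Zc3hav1, the antiviral protein ZAP that binds CpG-rich RNA, rose from 18.6 ± 2.03 to 36.7 ± 8.14 CPM (adjusted p = 0.0132). Dhx9, an RNA helicase that unwinds dsRNA, fell from 250.5 ± 41.9 to 129 ± 3.60 CPM (adjusted p = 0.0109), a call lost with library totals (-0.51, adjusted p = 0.0761). The most abundant gene that was not called was Ddx3x, another helicase, at 254.0 ± 40.0 CPM in WT and 167 ± 32.9 CPM in Pim3-/- ESCs (adjusted p = 0.0645). Its log2 fold change was -0.41 without Pim3-/- replicate 1 and -0.82 without replicate 2. Trim25 (log2 fold change 0.77), the ubiquitin ligase of RIG-I, and Prkra (-0.79), the activator of the kinase PKR, were the other 2 calls, named after their values were seen, and Prkra was not called with library totals (adjusted p = 0.183). Dhx58, which encodes the third RIG-I-like receptor LGP2 and was likewise named afterwards, had 44 and 46 counts in WT against 58 and 26 in Pim3-/- ESCs and was not called (adjusted p = 0.477).

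Downstream of MAVS, 6 of 28 tested genes were called higher and 0 lower, with 6 and 3 at an unadjusted p under 0.05 and 4 and 1 with the Wald test of DESeq2. The median log2 fold change of the list was 0.14. The shares called are to be read against 17.6% of all genes called higher and 16.2% lower. With library totals 13 were called higher and 0 lower, with a median of 0.59. Over all 18444 tested genes that scaling gave 6594 higher and 1094 lower calls, with a median of 0.52. Tnfaip3, the ubiquitin-editing enzyme A20 that dampens NF-κB and interferon signalling, had 11 and 19 counts in WT against 128 and 130 in Pim3-/- ESCs, and its level rose 6.87-fold (adjusted p = 0.00455, edgeR's quasi-likelihood test). Nlrx1, a mitochondrial protein that binds MAVS and restrains it, rose 3.60-fold, from 1.66 ± 0.162 to 5.97 ± 0.874 CPM (adjusted p = 0.00721). Fadd, an adaptor of death receptors, rose 2.02-fold (adjusted p = 0.0429) and was not called by the Wald test (adjusted p = 0.0677). The other 3 calls, named after their values were seen, were Traf6 (log2 fold change 0.88), Tbkbp1 (0.77) and Traf3 (0.67), which carry the signal towards the kinase TBK1 and NF-κB, and the Wald test did not call Traf3 (adjusted p = 0.0686). Pcbp2, which directs MAVS to degradation, was the most abundant gene not called, at 918 ± 51.5 and 748 ± 2.48 CPM (adjusted p = 0.264). Irf3, the factor that MAVS signalling activates first, was named afterwards and had 504 and 551 counts in WT against 513 and 444 in Pim3-/- ESCs (log2 fold change -0.47 ± 0.18 SE, adjusted p = 0.0766).

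In the endosomal branch, 0 of 7 tested genes were called higher and 1 lower, with 1 and 1 at an unadjusted p under 0.05 and 0 and 1 with the Wald test of DESeq2. Over all tested genes 17.6% were called higher and 16.2% lower. Myd88, the adaptor of most Toll-like receptors but not of TLR3, fell from 18.1 ± 0.864 to 8.62 ± 1.67 CPM (adjusted p = 0.0126 by edgeR's quasi-likelihood test), and missed the threshold with library totals (-0.62, adjusted p = 0.0683). Hsp90b1, the chaperone of these receptors and the most abundant gene not called, stood at 204 ± 16.2 and 183 ± 57.1 CPM (adjusted p = 0.622). Its log2 fold change was -0.52 without Pim3-/- replicate 2 and 0.13 without replicate 1. With library totals 2 genes of the branch were called higher and 0 lower. Among the other interferon regulatory factors and the 3 IRF2-binding proteins listed with them, 0 of 8 tested genes were called higher and 1 lower, with 2 and 3 at an unadjusted p under 0.05 and 0 and 1 with the Wald test. Irf5 fell from 106.8 ± 5.52 to 67.0 ± 4.73 CPM (adjusted p = 0.0195, and 0.330 with library totals). Irf2bpl, an IRF2-binding protein and the most abundant gene not called, had 46.7 ± 6.88 and 67.0 ± 9.16 CPM (adjusted p = 0.0658). The log2 fold change of Irf2bpl was 0.65 without Pim3-/- replicate 1 and 0.37 without replicate 2. With library totals 4 of these 8 genes were called higher and 0 lower, where 6594 of all 18444 tested genes were called higher and 1094 lower.

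No interferon gene reached the level of a test. Of 21 interferon genes in the table, Ifnb1 and the alpha interferons among them, 18 had 0 counts in all 4 libraries. The other 3 were Ifne, with 1 count in Pim3-/- replicate 1, Ifng, with 1 in replicate 2, and Ifnz, with 2 and 1 in the Pim3-/- libraries. The genes that receive interferon were expressed, and all 17 genes of the receptor and JAK-STAT list were tested. Of these, 1 was called higher and 0 lower, against 17.6% and 16.2% of all tested genes. The counts were 2 and 3 at an unadjusted p under 0.05 and 1 and 0 with the Wald test of DESeq2. With library totals 5 were called higher and 0 lower, where 6594 of all 18444 tested genes were called higher and 1094 lower. Ifngr1, a chain of the interferon gamma receptor, rose from 5.75 ± 0.0972 to 12.2 ± 1.00 CPM (adjusted p = 0.0133 by edgeR's quasi-likelihood test). Socs3, a feedback inhibitor that LIF induces and the most abundant gene not called, stood at 257 ± 3.82 and 252 ± 13.4 CPM (adjusted p = 0.899).

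**Figure D3:**
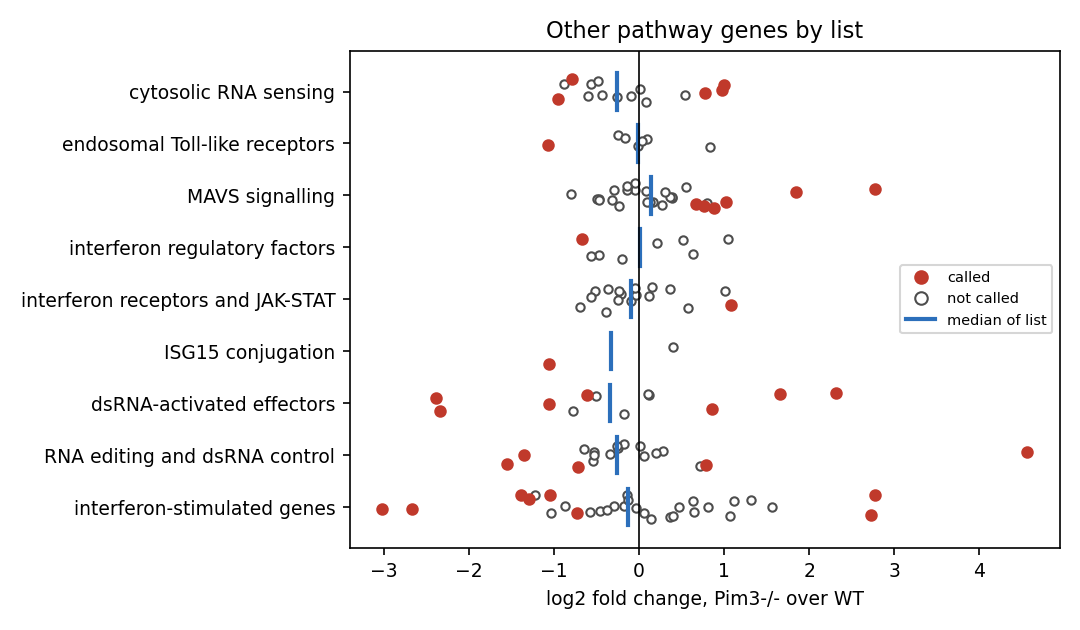
Log2 fold change (Pim3-/- over WT) of every tested gene of the other pathway lists, each point 1 gene, filled in red where called, with the median of each list as a blue bar. Medians lie between -0.34 and 0.14, and the called genes fall on both sides of 0 in the lists of cytosolic sensing, dsRNA-activated effectors, RNA editing and interferon-stimulated genes.

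Genes that are switched on by dsRNA itself moved in both directions. In the list of dsRNA-activated effectors 3 of 12 tested genes were called higher and 4 lower, against 17.6% and 16.2% of all tested genes. The median log2 fold change was -0.34. With library totals 3 were called higher and 3 lower, with a median of 0.11. Oas1a, an oligoadenylate synthetase that is activated by binding dsRNA, had 322 and 372 counts in WT against 80 and 86 in Pim3-/- ESCs and fell 5.24-fold (log2 fold change -2.39 ± 0.24 SE, adjusted p = 0.00287 by edgeR's quasi-likelihood test). Its near-identical copy Oas1g had 311 and 320 counts against 92 and 65 and fell 5.08-fold (adjusted p = 0.00357), and how reads were shared between the copies is not given, so the 2 values are uncertain one by one. Without WT replicate 1 both missed the threshold (Oas1a -2.35, adjusted p = 0.071, and Oas1g -2.22, adjusted p = 0.0736). Oas3, the most abundant gene not called, stood at 8.05 ± 1.65 and 8.70 ± 0.244 CPM (adjusted p = 0.760). Further calls, named after their values were seen, were Oasl1 (log2 fold change 1.66) and Ppp1r15a (0.86), which rose, and Eif2s1 (-1.06), the translation factor that PKR phosphorylates, and Eif2ak2 (-0.61, adjusted p = 0.0496), the PKR gene itself, which fell. The call on Eif2ak2 was lost with library totals (-0.16, adjusted p = 0.567) and with the Wald test (adjusted p = 0.0588).

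In the list of RNA editing and dsRNA control 2 of 18 tested genes were called higher and 3 lower, against 17.6% and 16.2% of all tested genes. The median log2 fold change was -0.26. With library totals 4 were called higher and 2 lower, with a median of 0.19. Rnaseh2a and Rnaseh2c, 2 subunits of the nuclease that removes RNA from RNA-DNA hybrids, both fell, Rnaseh2a from 394 ± 21.1 to 154 ± 49.0 CPM (adjusted p = 0.00839, edgeR's quasi-likelihood test) and Rnaseh2c from 103 ± 7.22 to 34.9 ± 11.6 CPM (adjusted p = 0.00564). Adad1, a testis relative of ADAR without editing activity, had 0 and 1 counts in WT against 20 and 16 in Pim3-/- ESCs, a ratio of 28.7 with an exact counting interval of 4.83 to 1164. Adad1 passed the filter on low counts only through the Pim3-/- libraries, so the only call open to it was higher. It was dropped when at least 10 counts were asked of every library. Adarb1 (log2 fold change 0.78), the second editing enzyme, and Ilf2 (-0.71), a subunit of a complex that binds dsRNA, were further calls, named afterwards. The Wald test did not call Adarb1 (adjusted p = 0.0612), and Ilf2 was not called with library totals (-0.26, adjusted p = 0.291). In the list named ISG15 conjugation, 2 of 5 genes were tested, Ube2l6 and Herc3. Of these 0 were called higher and 1 lower, and 0 and 1 at an unadjusted p under 0.05. With library totals 1 (Herc3) was called higher and 0 lower. Ube2l6, the conjugating enzyme for ISG15, had 68 and 71 counts in WT against 46 and 38 in Pim3-/- ESCs (log2 fold change -1.06 ± 0.34 SE, adjusted p = 0.0485), a call that the Wald test of DESeq2 did not make (0 in either direction). Herc3 was not called, at 10.0 ± 0.947 and 13.2 ± 0.189 CPM (adjusted p = 0.186).

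Genes of the Ifitm family were the most abundant interferon-stimulated genes called, and they fell, while 27 genes of the list were too low to test. Of 58 genes, 31 were tested, 2 were called higher and 6 lower (0 and 7 with the Wald test of DESeq2), against 17.6% and 16.2% of all tested genes. The median log2 fold change was -0.13. With library totals 10 were called higher and 4 lower, with a median of 0.33. Over all 18444 tested genes that scaling gave 6594 higher and 1094 lower calls, with a median of 0.52. Another 10 had 0 counts in every library and 17 in all had at most 3. Ifitm3, a membrane protein that blocks the entry of enveloped viruses, had 2597 and 2642 counts in WT against 558 and 260 in Pim3-/- ESCs, and fell 8.13-fold (log2 fold change -3.02 ± 0.33 SE, adjusted p = 0.00319 by edgeR's quasi-likelihood test). It was called in every alternative that kept all 4 libraries, and with 1 library left out its log2 fold change ranged from -3.64 to -2.59. Its neighbours in the family, Ifitm1 (log2 fold change -2.67) and Ifitm2 (-1.29), also fell, as did Plscr1 (-1.39), Phf11d (-1.05) and Tor3a (-0.74), all 5 named after their values were seen. Of these 6 genes, Phf11d and Tor3a were not called with library totals (adjusted p = 0.133 and 0.295), and the other 4 were. Mx1, a GTPase that traps viral nucleocapsids, had 1 and 4 counts in WT against 16 and 28 in Pim3-/- ESCs (log2 fold change 2.77 ± 0.72 SE, adjusted p = 0.0236). Lgals3bp, a secreted glycoprotein, had 2 and 3 counts against 19 and 24, a ratio of 6.85 with an exact counting interval of 2.72 to 22.2, and neither gene was called by the Wald test (adjusted p = 0.0606 and 0.0608). Both passed the filter on low counts only through the Pim3-/- libraries, so the only call open to them was higher. Both were dropped when at least 10 counts were asked of every library. Ifi30, the most abundant gene not called, split the clones, with 2362 and 2561 counts in WT against 1537 and 4030 in Pim3-/- ESCs. Its log2 fold change was 0.40 without Pim3-/- replicate 1 and -1.04 without replicate 2.

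**Figure D4:**
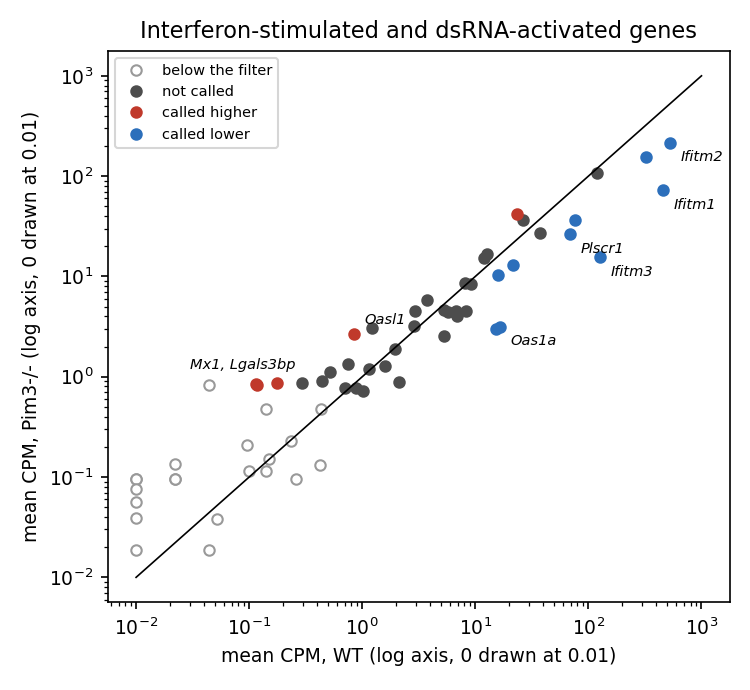
Mean CPM in WT (horizontal, log axis) against mean CPM in Pim3-/- ESCs (vertical, log axis) for interferon-stimulated genes and dsRNA-activated effectors, each point 1 gene, with the line of equal levels and 0 drawn at 0.01. Genes called lower (blue) lie among the more abundant genes and include Ifitm1, Ifitm2, Ifitm3 and Oas1a. The genes called higher (red) include Mx1 and Lgals3bp, which lie under 1 CPM in both groups, and Ppp1r15a, at 23.2 CPM in WT and 42.1 CPM in Pim3-/- ESCs.

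The response element core was present in 22 of the 46 interferon-stimulated genes with a RefSeq promoter. Of these 22 genes 1 (Ifitm2) was called lower, 6 were not called and 15 were too low to test. Among the effectors 6 of 11 promoters held it, those of Ppp1r15a, which rose, of Oas1a, Oas1g and Eif2s1, which fell, and of Oas1c and Oas3, which were not called. Over the 9 genes and all 10 lists, 47 of 170 genes with a promoter held this spelling, against 3.46% of all 27025 genes with a RefSeq promoter. Of the 47, 1 was called higher (Ppp1r15a), 6 were called lower (Bst2, Myd88, Oas1a, Oas1g, Eif2s1 and Ifitm2), 11 were not called and 29 were too low to test, a count with no test of its own. For comparison among tested genes only, which leaves out the 29, 17.6% of all tested genes were called higher and 16.2% lower. The promoter of Ddx58, the gene of the group that fell most, did not hold it in the 250 bases searched.

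Retroviral RNA, against which these genes can act, was counted in the same libraries per subfamily of transposable elements. Of 828 tested subfamilies 3.38% were called higher and 5.31% lower by edgeR's quasi-likelihood test within that table. MERVL-int, the internal part of an endogenous retrovirus of the 2-cell stage, had 1132 and 1584 counts in WT against 8868 and 6194 in Pim3-/- ESCs (log2 fold change 1.89 ± 0.16 SE, adjusted p = 2.6e-04), and its promoter repeat MT2_Mm also rose (1.69 ± 0.26 SE, adjusted p = 0.00607). RLTR6-int rose from 108 and 157 counts to 432 and 431 (1.12 ± 0.15 SE, adjusted p = 0.00288). In the other direction, ETnERV-int fell from 8759 and 9623 counts to 6142 and 5144 (-1.30 ± 0.11 SE, adjusted p = 2.3e-04) and MMERVK10C-int fell by 0.79 on the log2 scale (adjusted p = 0.0153). IAPEz-int (-0.20), RLTR4_MM-int (0.47, with 751 and 2085 counts in the Pim3-/- libraries) and RLTR45-int (0.60) were not called. With the scaling of the gene table the log2 fold changes were 2.15 for MERVL-int, 1.94 for MT2_Mm and 1.38 for RLTR6-int. They were -1.04 for ETnERV-int, -0.53 for MMERVK10C-int, 0.07 for IAPEz-int, 0.76 for RLTR4_MM-int and 0.87 for RLTR45-int. Thus RNA of MERVL-int and RLTR6-int was higher and RNA of Ddx58 and Bst2 lower in the same 2 libraries, and no relation between them can be tested with 4 libraries.

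Markers of immune cells and fibroblasts were uneven, with a few expressed and most close to 0 counts. The calls among them are to be read against 17.6% of all tested genes called higher and 16.2% lower. Of 8 macrophage markers 2 were tested and 0 were called (1 higher and 0 lower at an unadjusted p under 0.05, and 0 and 0 with the Wald test of DESeq2), the defining genes Ptprc and Adgre1 were at 0 in all 4 libraries, and the summed level was 63.8 to 70.0 CPM in WT and 37.8 to 67.3 CPM in Pim3-/- ESCs. Most of that sum came from Cd68, at 55.6 and 50.7 CPM in WT and 16.8 and 48.7 CPM in Pim3-/- ESCs, and from Csf1r, at 14.1 and 12.9 against 20.6 and 18.02 CPM. Of 8 fibroblast markers 3 were tested and 1 was called higher (Pdgfrb, at 4.95 and 6.62 CPM in WT and 23.5 and 24.4 CPM in Pim3-/- ESCs), Thy1 stood at 18.2 to 20.9 CPM in the 4 libraries, Lum was at 0, and the summed level was 27.6 to 28.2 CPM in WT and 44.8 to 49.0 CPM in Pim3-/- ESCs.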

How the data were processed

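RNA-seq of 2 WT and 2 Pim3-/- libraries was analysed from the raw counts per gene and per subfamily of transposable elements that the authors deposited. For these tables, the methods of the study name Cutadapt, Hisat2, mm10, Ensembl genes and RepeatMasker, whereas the submitters' processing notes name Trim Galore, STAR, featureCounts and GRCm38. Which of them made the counts, and how strand and multiply mapped reads were treated, is not given in the sources used here.

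Low genes were removed with edgeR 4.0.16 (its function filterByExpr, with a minimum count of 10 and a minimum total of 15), and the rest were scaled by TMM factors and compared with its quasi-likelihood test in R 4.3.3, with Benjamini-Hochberg adjustment over all tested genes. The quasi-likelihood comparison was tested on simulated counts, and the other steps were not. Alternatives were DESeq2 1.42.0 size factors and Wald test, library totals, 2 other filters, a replicate block and the omission of each library. Replicates differed by more than counting noise, so each counted as 1 sample. Positions and exon lengths came from GENCODE M21 (GRCm38) and promoters from RefSeq. Intervals of counts and levels of 3 counts cover counting error only.

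The 9 genes and all lists were chosen with earlier results of these data known. By rule, the text names all 9, Pim3, per list up to 3 called genes with the largest fold change, provided that each library of the group where the gene is higher holds at least 10 counts, the most abundant gene not called, and interferons with any count. Some genes under this rule are not reported here.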

Additional observations from a re-analysis of the deposited data

How the results depend on the processing

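The 4 libraries, 2 per group, limit every value, and both Pim3-/- libraries are single clones. Leaving out a WT library rests the spread on the 2 clones alone and assumes that the lone WT library varies like them. Leaving out a Pim3-/- library rests the spread on the 2 WT libraries alone, and calls made then do not measure the spread between clones. The 9 genes gave 0 higher calls in all 10 alternatives. Lower calls went from 2 to 1 with library totals and ranged from 1 to 3 when a library was left out. Pathway genes called higher went from 17 to 46 with library totals and to 11 with the Wald test of DESeq2, and ranged from 0 to 32 without 1 library. Those called lower went from 18 to 9 with library totals and ranged from 2 to 41 without 1 library. Over all genes the calls without 1 library ranged from 25 to 5384 higher and from 5 to 5139 lower. For the fold changes of the named genes, 243 values kept direction and side of the threshold, 48 lost the call, 13 gained it and 13 changed sign. With library totals the sign changed for Mavs (0.012), Irf1 (0.30), Hsp90b1 (0.29), Pcbp2 (0.16), Socs3 (0.42) and Ifi30 (0.31), as the median of all genes moved by 0.45 on the log2 scale. With at least 10 counts in every library Socs3 was 0.047. Without 1 library the log2 fold change ranged from -0.23 to 0.30 for Adar, -0.52 to 0.13 for Hsp90b1, -0.088 to 0.020 for Socs3, -0.062 to 0.32 for Oas3 and -1.04 to 0.40 for Ifi30, and the cause was not tested. With a replicate block the calls among the 9 genes stayed at 0 higher and 2 lower (Ddx58 and Bst2, the latter at -1.01, adjusted p = 0.00242 by edgeR), and those of the pathway genes were 19 higher and 22 lower. The deviations of same-numbered libraries from their group means correlated at 0.03 across genes. With 2 libraries per group, and the Pim3-/- libraries also differing by clone, this cannot decide whether the replicate numbers pair the samples. No other call among the 9 genes changed with the block. Genes at a few counts, such as Ifih1, Tlr3 and Isg15, allow no statement on a difference at this depth.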
